A study of Caenorhabditis elegans with 2 samples.

Results

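Autosomal intronic regions away from gene starts were the 205 regions, of 1604 in the optimal peak list, whose summit lay inside a protein-coding gene on an autosome but in none of its exons. No protein-coding transcript start, tRNA gene start or snoRNA gene start was within 500 bp of these summits. The members were chosen by position alone, on build ce11 (WBcel235) with the RefSeq annotation. The other autosomal regions of the list were 463 promoter regions within 500 bp of a protein-coding start, 395 distal regions between genes, 66 exonic regions and 133 regions beside a tRNA or snoRNA start. A further 45 regions met the same intronic rule on X.

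The assay was chromatin immunoprecipitation with an anti-GFP antibody followed by sequencing, in whole L2 larvae of Caenorhabditis elegans strain OP608, of mixed sex, collected at 42 hours after synchronisation by bleaching and starvation as L1. All animals carried the unc-119(tm4063) mutation and the integrated array wgIs608, which expresses Y55F3AM.14 with a C-terminal TY, EGFP and 3xFLAG tag from a transgene and restores unc-119. There was 1 group with 2 biological replicates and 1 control per list, and no untagged strain or other factor was analysed here, so whether a region is particular to the tagged protein was not tested. The strain is 1 transgenic line, and cell types within the larva cannot be told apart. The number of sequencing reads behind each list is unknown.

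Y55F3AM.14 has the name znf-782 in RefSeq and encodes a C2H2 zinc finger protein, a class whose fingers read short stretches of DNA. Most introns of C. elegans are short, and the long ones are known to hold enhancers, internal promoters and nested non-coding RNA genes. A summit is the position of highest signal in a region, and the fragments sequenced were sonicated to 200 to 800 bp, which limits how closely a binding site can be placed.

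The sequences at the summits showed what many of these regions shared. Each line gives a window of 151 bp centred on the summit, read 5′ to 3′ on the strand of the host gene from the WBcel235 assembly of RefSeq, with capitals marking GAGAGA or its reverse complement TCTCTC and GACGC or its reverse complement GCGTC. The windows of aakg-1 and spat-2 held the longest GA runs outside the chromosome that carries ppfr-1. Those of miz-1 and of pqn-41 at 1925230 were among the strongest with GAGAGA on either strand. The other pqn-41 window, Y111B2A.12 and mdt-26 were among the strongest with GACGC, and T28B11.1 and trd-1 were the strongest with neither.
aakg-1, III:12549748-12549898, minus strand: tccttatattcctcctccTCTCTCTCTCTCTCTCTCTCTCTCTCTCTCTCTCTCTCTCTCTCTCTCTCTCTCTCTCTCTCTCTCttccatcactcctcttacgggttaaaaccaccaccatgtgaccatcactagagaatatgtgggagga
spat-2, III:11054828-11054978, plus strand: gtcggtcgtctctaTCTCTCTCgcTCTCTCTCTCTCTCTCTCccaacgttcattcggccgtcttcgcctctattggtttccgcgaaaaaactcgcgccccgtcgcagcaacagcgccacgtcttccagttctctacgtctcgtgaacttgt
miz-1, IV:10821826-10821976, plus strand: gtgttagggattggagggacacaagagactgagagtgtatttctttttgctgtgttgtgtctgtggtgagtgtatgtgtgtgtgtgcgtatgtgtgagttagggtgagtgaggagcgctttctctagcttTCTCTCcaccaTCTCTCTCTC
pqn-41, III:1925230-1925380, plus strand: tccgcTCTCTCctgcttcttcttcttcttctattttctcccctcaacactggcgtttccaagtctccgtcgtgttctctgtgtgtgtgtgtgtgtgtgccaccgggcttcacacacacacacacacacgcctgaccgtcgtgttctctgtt
pqn-41, III:1921315-1921465, plus strand: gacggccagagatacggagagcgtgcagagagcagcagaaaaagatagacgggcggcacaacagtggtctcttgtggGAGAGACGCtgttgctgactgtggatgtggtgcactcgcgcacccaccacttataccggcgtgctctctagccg
Y111B2A.12, III:12612584-12612734, plus strand: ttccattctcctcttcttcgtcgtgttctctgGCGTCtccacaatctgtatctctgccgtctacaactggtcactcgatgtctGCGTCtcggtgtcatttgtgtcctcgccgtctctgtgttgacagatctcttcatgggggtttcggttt
mdt-26, II:5661737-5661887, plus strand: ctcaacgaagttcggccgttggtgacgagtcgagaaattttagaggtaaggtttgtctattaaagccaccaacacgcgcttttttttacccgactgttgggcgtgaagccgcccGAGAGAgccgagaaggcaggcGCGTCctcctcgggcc
T28B11.1, V:10715932-10716082, minus strand: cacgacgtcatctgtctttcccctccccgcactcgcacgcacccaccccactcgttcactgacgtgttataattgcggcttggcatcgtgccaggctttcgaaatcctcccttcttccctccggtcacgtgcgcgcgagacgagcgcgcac
trd-1, III:7387421-7387571, plus strand: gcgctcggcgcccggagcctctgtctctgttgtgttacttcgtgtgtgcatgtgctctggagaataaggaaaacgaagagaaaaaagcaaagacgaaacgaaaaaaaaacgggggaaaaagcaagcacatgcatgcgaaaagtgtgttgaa

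In aakg-1, which encodes a gamma subunit of AMP-activated protein kinase, a run of 68 bp of alternating T and C filled much of the window. In spat-2 the longest run was 19 bp, and in miz-1 it was 10 bp. The second pqn-41 window joined both motifs in overlap, with GACGC starting inside GAGAGA. The window of Y111B2A.12 held GCGTC at 2 places and no GAGAGA on either strand.

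The strongest intronic regions lay in ppfr-1, which encodes a regulatory subunit of protein phosphatase 4. The score, the signal value that the authors' peak caller gave each region, was 1438 for the region at I:9382817-9383294, the second highest of all 1604 regions. That region scored 779 in the replicate 1 list and 657 in the replicate 2 list, and its summit was 6595 bp from the nearest protein-coding start, that of ppfr-1 itself. A summit 240 bp away in the same interval scored 639.6 (522 in replicate 1 and 530.5 in replicate 2). The next intron of the gene, of 10404 bp, held a region at I:9381066-9381968 with a score of 839.8 (459 in replicate 1 and 382 in replicate 2). In all, ppfr-1 had 7 summits in 5 distinct intervals and 2 introns, spread over 10686 bp, with scores down to 121. GAGAGA was present at 3 of the 7 summits and GACGC at none.

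T28B11.1, which RefSeq describes as an F-box domain protein, had 6 regions over 13661 bp, all in its first intron of 17091 bp. The strongest, at V:10715830-10716144, scored 793 (423 in replicate 1 and 374 in replicate 2) and lay in T28B11.18, a non-coding RNA gene annotated within that intron. The weakest of the 6 scored 141 (128 in replicate 1 and 45.4 in replicate 2), and another, with a score of 173, had no summit within 100 bp in either replicate list. The summits of these regions lay 199 bp apart and their intervals overlap, so they may not be separate sites. The replicate scores of the strongest T28B11.1 region differed by 1.13 times and those of the weakest by 2.82 times.

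The gene pqn-41, which encodes a polyglutamine-rich protein known for its part in the death of the male linker cell, had 4 regions in 1 intron of 7776 bp. They scored 762, 642, 595 and 357, so all 4 were among the 16 strongest members. The replicate 1 scores were 418, 354, 351 and 219 and the replicate 2 scores were 348, 290.4, 251 and 147, in the same order. Replicate 1 was the higher in each, by 1.20 to 1.49 times. GAGAGA was present at 3 of these summits and GACGC at 2.

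Among the other strongest members, trd-1, a tetratricopeptide repeat gene, had a region of score 665 (368 in replicate 1 and 298 in replicate 2) in an intron of only 754 bp. The forkhead gene fkh-7 had 4 regions, the strongest at IV:5591176-5591488 with 582 (346 in replicate 1 and 236 in replicate 2), 6647 bp from the nearest start. Y111B2A.12 followed with 478 (286 and 207 in replicates 1 and 2) and miz-1 with 417 (210.1 and 212 in replicates 1 and 2). A region in saeg-1, named as a suppressor of activated egl-4, the gene for a cGMP-dependent protein kinase, scored 385. Regions in ints-8, for a subunit of the Integrator complex, and mdt-26, for a Mediator subunit, scored 381 and 361. The chromatin gene zfp-1, a homolog of mammalian AF10, had 4 regions with scores of 113 to 351. These scores rank regions within 1 list and carry no error of their own.

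Scores of the 205 regions ran from 110.8 to 1438, with a median of 154 and an interquartile range of 125 to 216. The median was 151 for promoter regions, 146 for distal regions and 150.2 for all 1604 regions, so intronic regions lay in the same range as the rest of the list. A summit within 100 bp was found in both replicate lists for 196 of the 205 (95.6%, 95% exact interval 91.8 to 98.0), against 93.3% of promoter regions and 93.2% of distal regions. The optimal list was itself derived from the replicates, so this share is not independent evidence of either.

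Of the 9 regions without a summit in both lists, 7 had one in replicate 2 only. They lay in fkh-7, larp-1, ccch-1, skn-1, dre-1, mdt-26 and npr-14, with optimal scores of 112 to 202. Only the Y65A5A.2 region had a summit in replicate 1 alone (70.6), and 1 of the T28B11.1 regions had one in neither. The mdt-26 case was a second summit 200 bp from the strong one. The skn-1 case lay 206 bp and the T28B11.1 case 199 bp from another member. Among the 196 in both lists, replicate 1 was the higher in 149 (76.0%), with a median ratio of 1.22, and the scores were within 2-fold of each other in 185. The extremes were spop-1, with 23.9 in replicate 1 and 71.5 in replicate 2, and Y48C3A.5, with 138 in replicate 1 and 41.6 in replicate 2. Next at each end were F32B5.7 (40.2 and 77.7 in replicates 1 and 2) and Y54G2A.77 (107 and 37.1). Across the 196 regions Spearman's rho between the replicates was 0.62, given as a description, since the points share the same libraries and selection. Without a depth for either library, the higher scores in replicate 1 have no scale.

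**Figure D1:**
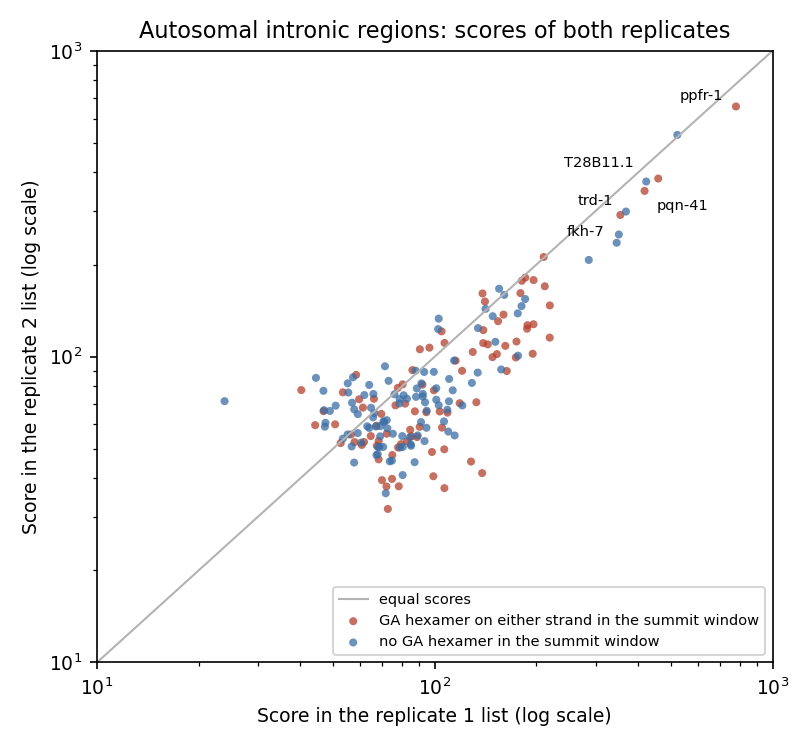
Scores of the 196 autosomal intronic regions with a summit in both replicate lists, replicate 1 on the horizontal and replicate 2 on the vertical axis (log scales, the caller's signal value), with red points for regions holding the GA hexamer within 75 bp of the summit and blue points for the others. Replicate 1 was the higher in 149 of the 196, which lie below the line of equal scores, and the names mark the strongest regions, in ppfr-1, T28B11.1, pqn-41, trd-1 and fkh-7.

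The 205 regions were spread over 148 host genes, 1.03% of the 14390 autosomal protein-coding genes with eligible intronic sequence. Eligible means intronic and beyond the same limits from starts that chose the members. A single region was present in 118 genes, 2 regions in 15, 3 in 8, 4 in 5, and more only in T28B11.1 and ppfr-1. 1 region lay in introns of 2 overlapping genes and was counted for T28D6.5. Neighbouring members were often close, with another optimal summit within 2000 bp of 71 (34.6%) and within 500 bp of 24 (11.7%). Members that share a gene, and summits that share an interval, are not independent of each other.

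The genes with 4 regions were let-526, pkg-2, fkh-7, pqn-41 and zfp-1. Those of let-526, which encodes an ARID protein of the SWI/SNF chromatin remodelling complex, scored 159 to 296 in 2 introns. Those of pkg-2, for a cGMP-dependent protein kinase, scored 137 to 212 over 9065 bp. The genes with 3 regions were srh-2, vhp-1, lin-42, saeg-1, sea-2, hlh-30, aakg-1 and daf-2. Among them lin-42, the worm's Period homolog in the timing of larval stages, reached 265 and hlh-30, the TFEB homolog that acts in autophagy, reached 203. The vhp-1 gene, for a MAP kinase phosphatase, reached 206, and sea-2, which acts as an autosomal signal in sex determination, reached 283. In let-526, sea-2 and srh-2 a pair of the regions counted have overlapping intervals, with summits 199, 209 and 200 bp apart. The share of genes with a region was larger the more eligible sequence they had. It was 0.0965% of genes with up to 1000 bp, 1.37% with 1000 to 5000 bp, 5.88% with 5000 to 10000 bp, 12.05% with 10000 to 20000 bp and 16.9% above that (10 of 59 genes).

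Long introns held most of the members. Introns of 1000 bp or more held 168 of the 205 (82.0%, 76.0 to 87.0), against 51.7% (50.3 to 53.1) of the 5151 weaker intronic regions and 51.0% of eligible bases. Weaker intronic regions are those of the authors' pooled relaxed list that met the same positional rule and overlapped no optimal region, and that list holds background as well as peaks. Their median score was 48.2. The host intron had a median length of 3934 bp for members and 1054 bp for weaker regions. The differences between these sets were not tested.

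Counted per Mb of eligible sequence, with overlapping genes counted each, there were 2.45 members per Mb in introns under 200 bp and 3.66 in those of 200 to 500 bp. The density was 3.69 per Mb at 500 to 1000 bp, 5.48 at 1000 to 2000 bp and 16.0 at 2000 to 5000 bp. It reached 24.5 per Mb at 5000 to 10000 bp and 45.2 per Mb from 10000 bp upward, where 32 regions lay in 15 of 64 introns. Weaker regions ranged only from 182 to 326 per Mb over the same classes. Counting each intron with a region once, the density from 10000 bp upward was 21.2 per Mb, against 18.1 at 5000 to 10000 bp and 12.8 at 2000 to 5000 bp, so part of the last step came from introns with several regions. The longest host introns were those of Y48C3A.5 (19925 bp), hmr-1, the classical cadherin gene (18116 bp), and T28B11.1 (17091 bp).

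**Figure D2:**
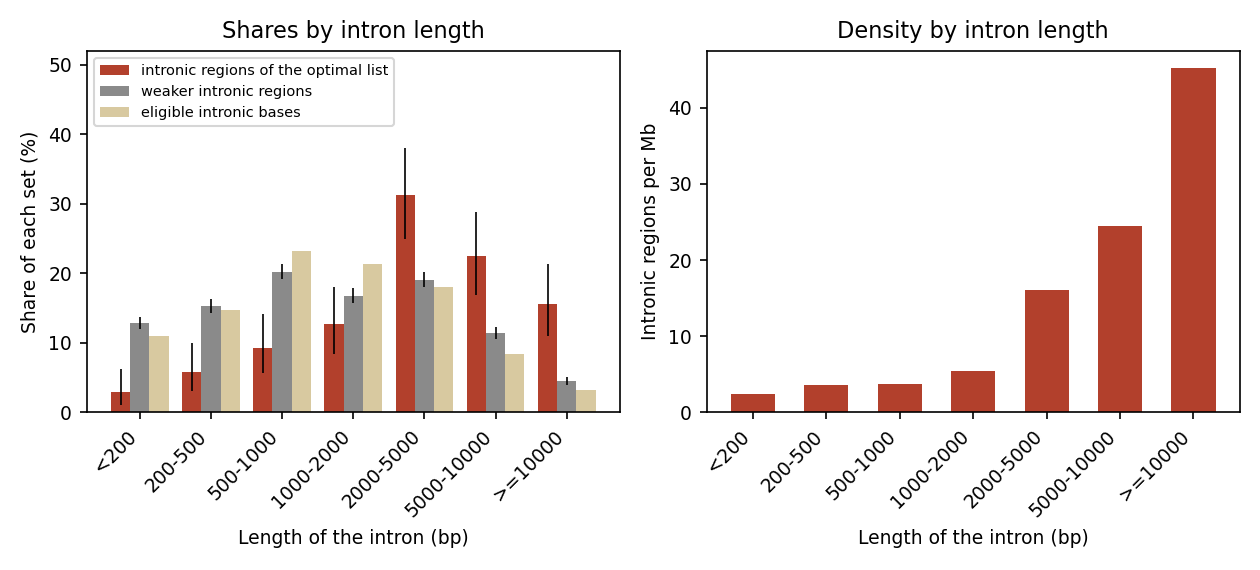
Intronic regions by length of the host intron: the left panel gives the share of the 205 optimal regions (red), of the 5151 weaker intronic regions (grey) and of eligible intronic bases (beige) in each length class, with 95% exact intervals for the regions. The right panel gives optimal regions per Mb of eligible sequence, from 2.45 in the shortest class to 45.2 in the longest.

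Introns were numbered between exons merged over all transcripts of a gene. An intron that is first only in a transcript starting farther downstream therefore counts as later. First introns held 68 members (33.2%, 26.8 to 40.1), against 18.0% of weaker regions and 15.4% of eligible bases. That was 19.9 members per Mb in first introns and 7.30 in later ones. Within length classes the order was mixed. Under 1000 bp there were 11.4 per Mb in first introns (9 regions) and 2.78 in later ones (28 regions). At 2000 to 5000 bp there were 28.4 per Mb in first introns (27 regions) and 12.2 in later ones (37 regions). From 10000 bp upward there were 56.8 (17 regions) and 36.8 (15 regions), or 23.4 and 19.6 with each intron counted once. At 1000 to 2000 bp there were 4.22 per Mb in first introns (3 regions) and 5.70 in later ones (23 regions). At 5000 to 10000 bp there were 18.0 (12 regions) and 28.1 (34 regions). The density was thus higher in first introns in some length classes and lower in others. Some of these counts are small, and the differences were not tested.

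The nearest protein-coding start was 1719 bp from the summit at the median and 20230 bp at most, and it was more than 2000 bp away for 82 members (40.0%). It belonged to the host gene in 183 cases. Measured along the host gene, 71 members (34.6%) had their nearest own start downstream, which places them between alternative starts of the gene. In mvk-1, for mevalonate kinase, the summit was 504 bp from a start, in alh-1, for an aldehyde dehydrogenase, 520 bp, and in F22F7.7 528 bp. These 3 were the closest beyond the limit, with scores of 307, 167 and 211. Just within it, and so not members, were summits in unc-108 at 498 bp, Y56A3A.7 at 487 bp and D2023.1 at 479 bp, with scores of 156, 156 and 229.6. In all, 65 autosomal intronic summits of the optimal list lay within the limit of a start.

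By chromosome, members numbered 49 on III, 47 on IV, 42 on V, 36 on I and 31 on II, which was 11.3, 10.5, 9.24, 7.33 and 8.51 per Mb of eligible sequence in that order. The arms, the outer parts of each autosome cut into 3 equal lengths, held 54.6% of members (47.6 to 61.6). They held 70.9% of weaker intronic regions (69.6 to 72.1) and 73.6% of eligible bases. The lowest arm share was on I, at 38.9% of members (23.1 to 56.5), against 70.0% of weaker regions there.

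Annotated genes of any type other than protein-coding, called non-coding here, lay near some members. The summit was inside an annotated non-coding gene in 26 cases (12.7%) and within 100 bp of one in 47 (22.9%). These shares were not counted for other sets of regions or for eligible sequence, so they have no background here. The nearest non-coding gene had the annotated type ncRNA in 37 of the 47. It was an antisense RNA in 4, a small nuclear RNA in 3 and a pseudogene in 1. The strongest ppfr-1 region lay in the ncRNA gene F16A11.7. The ints-8 region at I:13463752-13464175, with 196 in replicate 1 and 178 in replicate 2, lay in rpr-1, whose annotated type is also ncRNA.

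The small nuclear RNA genes, whose products act in splicing, were W05B2.8, 27 bp from the summit in the dynein heavy chain gene dhc-4, sup-6 in F58G1.7, and R07E5.16, 16 bp from the summit in mpc-1. The dhc-4 region scored 323 (155 in replicate 1 and 167 in replicate 2), that of F58G1.7 285 and that of mpc-1 134. By the rule that chose the members, no tRNA or snoRNA gene started within 500 bp. The 51 bp around the summit occurred at 1 place in the genome for 204 of the 205. The exception was the klp-6 region, in the ncRNA gene srpr-2.2. Soft-masked repeats filled more than 50% of the window in 22 members (10.7%, 6.85 to 15.8), against 27.5% of weaker intronic regions.

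Host genes are described by lists of gene symbols, or of product names where stated, which leave out genes without such a name. Of 127 genes on a list of bHLH, forkhead, GATA, bZIP and related transcription factors, 10 had a region (7.87%, 3.84 to 14.004), against 1.03% of all 14390 genes. They were crh-2, daf-14, daf-16, daf-5, fkh-7, hlh-30, klf-1, mef-2, skn-1 and tra-1. Together they had 17 regions, 4 of them in fkh-7 and 3 in hlh-30. After those of fkh-7, the strongest were in daf-16, the FOXO factor downstream of insulin signalling (259.6 with 139 in replicate 1 and 122 in replicate 2), and mef-2, a MADS-box factor (244 with 148 and 99.6). With 46.1 regions per Mb this list also stood above the 9.23 of all genes when scaled to eligible sequence, while its weaker regions were at 396 per Mb against 232. Of 73 homeobox genes on the list, unc-62, a Meis homolog, had a region (277), which is 1.37% (0.0347 to 7.40), an interval that includes the share of all genes. Outside it, Y56A3A.7, with the product name of a cut-like homeobox protein, had 2 members (145 and 116). Of 244 nuclear hormone receptors 4 did (1.64%, 0.448 to 4.14), nhr-19, nhr-31, nhr-85 and nhr-46, whose strongest regions scored 124 to 216.

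Of 440 genes with kinase in their product name, 13 had a region (2.95%), with 18.3 regions per Mb. They included pkg-2 and egl-4 for cGMP-dependent kinases, mpk-1 for ERK, jnk-1 for JNK, unc-43 for CaM kinase II, par-1 for a polarity kinase, and mnk-1 (210.3 for mnk-1). The list goes by words and also took in mvk-1, whose product acts on a small molecule. Of 260 genes with phosphatase in their product name, 8 had a region (3.08%). Of the 17 regions in these 8 genes, 7 were those of ppfr-1, and 3 were in vhp-1.

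Synaptic and axon guidance genes had 8 of 116 with a region (6.90%, 3.02 to 13.1), with 12.9 regions per Mb. They were gpb-1, for the G protein beta subunit (189), rab-3, a synaptic vesicle GTPase (155), nrx-1, for neurexin (145), ida-1 (143), mig-10, rig-6, and the synaptotagmin genes snt-1 and snt-4. These genes have much intronic sequence, a median of 3337 eligible bp against 598 over all genes. Ion channels and transmitter receptors had 3 of 231, with 3.61 regions per Mb, below the density of all genes. Those were unc-79, for a protein of the NALCN sodium channel complex, tax-6, for calcineurin A, and lev-1, for an acetylcholine receptor subunit. The product of tax-6 is named as a phosphatase and not as a channel or receptor, and the gene was also counted on the phosphatase list. Chromatin and transcription cofactor genes had 3 of 138 (2.17%, 0.451 to 6.22), mdt-26, zfp-1 and pbrm-1, with 7 regions, 4 of them in zfp-1. That list left out let-526 and ints-8, which had members.

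Other lists had few or none. The muscle and cytoskeleton list had 1 of 101 (klp-6) and left out the dynein heavy chain gene dhc-4, which had a member. Extracellular matrix and adhesion had 1 of 149 (hmr-1) and RNA binding and splicing 1 of 130 (larp-1). A list of GTPase genes and their regulators, made by words in the product name, had 0 of 63. It left out rab-3, a GTPase gene with a member whose product is named as Ras-related. Ribosomal protein genes, which have little eligible sequence, had 0 of 20, and the fbx, math, bath and btb gene families 0 of 294. That list left out T28B11.1 and dre-1, whose products are named as F-box proteins, pqn-87, named as a MATH domain protein, and F47D12.3, named as a BTB/POZ domain protein, all of which had members. Among 1235 genes with chemoreceptor symbols, srh-2 and srt-52 had regions (0.162%), and outside that list T21H3.5 (214) and Y54G2A.77 (138), with product names of serpentine receptors, had them too. On a list of daf genes drawn up after the members were seen, 4 of 22 had a region. They were daf-2, the insulin receptor gene (227, 155 and 119), daf-16 (259.6 and 129), daf-14, for a Smad protein (152), and daf-5, for a Sno/Ski protein (114). Of the 205 regions, 121 lay in genes on none of these lists. The counts are descriptions, and no list was tested against another.

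**Figure D3:**
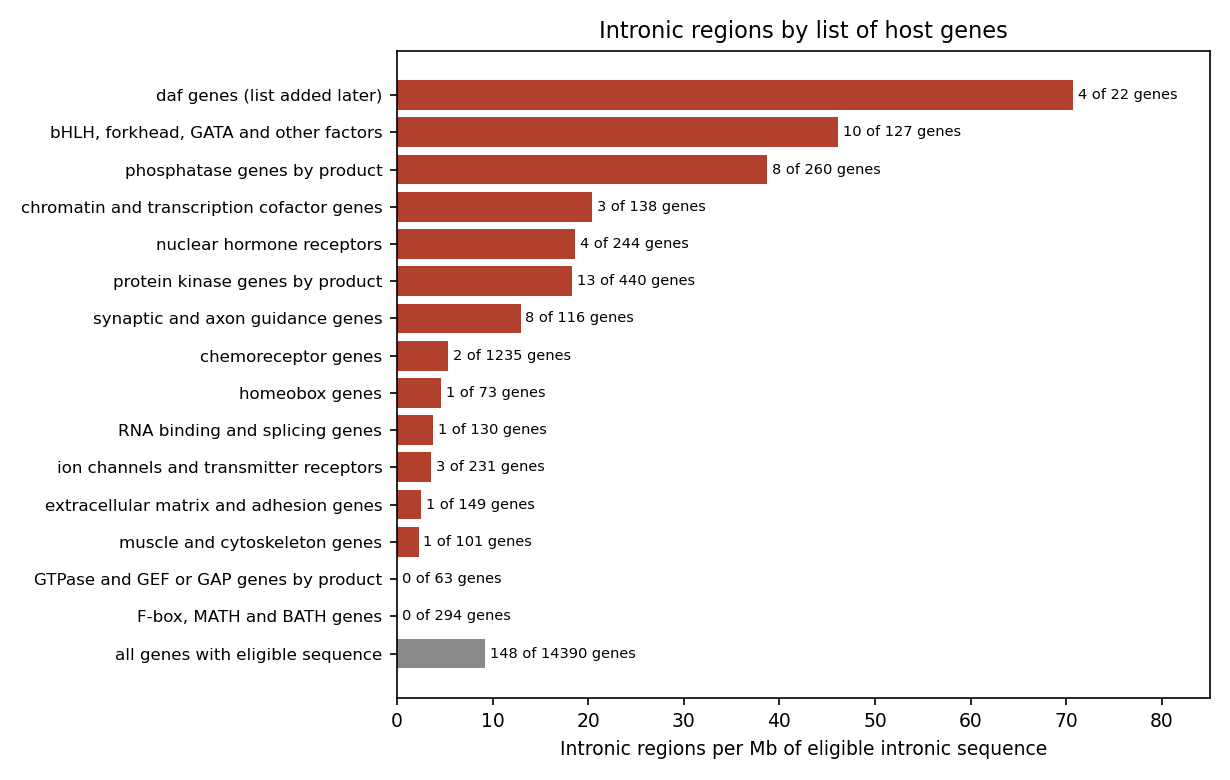
Autosomal intronic regions per Mb of eligible intronic sequence for each list of host genes (red bars) and for all 14390 genes (grey bar, 9.23 per Mb), with the number of genes holding a region beside each bar and the ribosomal protein genes, with 0.001805 Mb, left out. The daf genes, a list added after the members were seen, stood at 70.8 per Mb, the transcription factors at 46.1 and the phosphatase genes, with 7 regions in ppfr-1 alone, at 38.7. The lists overlap, with daf-5, daf-14 and daf-16 counted both as daf genes and as transcription factors.

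The GA sequences printed for aakg-1, spat-2 and miz-1 were frequent at the summits. GAGAGA, on either strand, lay within 75 bp of the summit in 94 members (45.9%, 38.9 to 52.9). An equally long control window with its centre 400 bp from the summit held it in 22 (10.7%, 6.85 to 15.8). The share was 45.8% (40.8 to 50.9) in distal regions, 29.4% (25.3 to 33.8) in promoter regions, 34.5% in all optimal regions and 12.4% (11.5 to 13.3) in weaker intronic regions. Of 116793 tiles of 151 bp over eligible intronic sequence, 6.17% held it. The interval of the members did not overlap that of promoter regions. With the strongest region of each gene alone the share was 40.5% (32.6 to 48.9), and among intronic regions of the strongest in replicate 2 alone it was 38.7% (32.2 to 45.5), and both of these intervals overlap it.

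GACGC, on either strand, was present in 63 members (30.7%, 24.5 to 37.5), against 7.80% of their control windows (4.53 to 12.4). It was present in 35.4% of promoter regions, 32.4% of distal regions, 31.4% of all optimal regions, 12.4% of weaker intronic regions and 7.51% of the tiles. Both motifs were in 37 members (18.0%) and neither in 85 (41.5%). They can overlap, as in the pqn-41 window. Of the 50 strongest members 32 held GAGAGA (64.0%, 49.2 to 77.1), against 62 of the other 155 (40.0%, 32.2 to 48.2), while for GACGC the shares were 32.0% and 30.3%. The E-box CACGTG, its own reverse complement, was in 19 members (9.27%, 5.67 to 14.1) and in 1.46% of their control windows, against 7.56% of promoter regions and 3.84% of weaker intronic regions. It was in 10 of the 45 intronic regions on X (22.2%, 11.2 to 37.1).

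Over all 2080 6-mers, with reverse complements counted as 1, presence at the summits and in the control windows was compared by the exact McNemar test with Benjamini-Hochberg adjustment. At an adjusted p under 0.05, 124 6-mers (5.96%) were called higher at the summits and 123 (5.91%) lower. With control windows 250 bp away 85 were called, 34 of them higher, and with windows of 50 bp to each side 125 were called, 61 of them higher. GAGAGA had the lowest adjusted exact p of the higher ones, 5.74e-11, from 86 members with it only at the summit and 14 with it only in the control window. AGAGAG (42.0% of summits and 10.2% of control windows, adjusted exact p = 6.41e-10), CAGAGA (30.7% and 5.85%, 2.11e-08) and CTCTCC (26.3% and 4.88%, 6.75e-08) followed and overlap it in sequence. CGCAGA (21.5% and 2.93%, 6.81e-07), CGTCTC (23.9% and 4.88%, 7.30e-06) and ACGCAG (20.5% and 3.90%, 1.12e-05) hold a CpG. AGAGAC (30.2% and 7.80%, 1.47e-06), CATCTC (20.0% and 3.41%, 2.15e-05) and AGAGTG (17.6% and 2.93%, 3.59e-05) completed the leading 10. The members are regions of 1 experiment and not replicates, so these p-values describe scatter across regions.

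The 6-mers called lower were led by AAAATT, in 18.5% of summits and 59.0% of control windows (adjusted exact p = 7.08e-14). TTAAAA (6.83% and 39.5%, 7.08e-14), TTTAAA (2.93% and 29.3%, 1.35e-10), AAATTT (8.29% and 37.6%, 5.75e-10) and TAAAAA (15.1% and 46.3%, 8.40e-10) were next. Base composition moved with these calls. The median GC content was 47.7% at the summits and 35.1% in the control windows, with 39.1% at weaker intronic summits and 31.8% in the tiles. Its part in the counts of 6-mers was not tested.

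The motifs lay around the summits and not evenly over the surrounding intron. In bins of 50 bp, GAGAGA was present in 24.9% of members at a distance centred on -75 bp, 22.9% at -25 bp, 18.5% at 25 bp and 25.4% at 75 bp. At -475 and 475 bp it was present in 2.93% and 2.44%. The share at weaker intronic summits was 4.91% at -25 bp. GACGC was narrower, with 13.2% at -25 bp and 11.7% at 25 bp and at most 8.29% in any bin farther out.

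**Figure D4:**
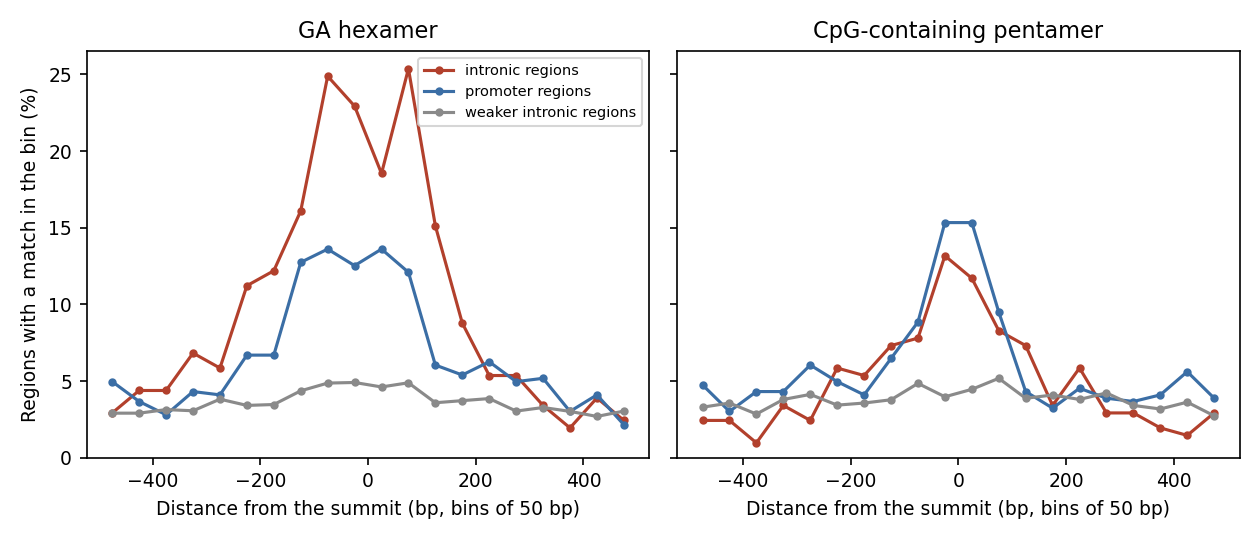
Share of regions with GAGAGA (left panel, titled GA hexamer) and with GACGC (right panel, titled CpG-containing pentamer), on either strand, in bins of 50 bp by distance from the summit. The panels show autosomal intronic regions (red), promoter regions (blue) and weaker intronic regions (grey), and at -25 bp GAGAGA was present in 22.9% of intronic regions, 12.5% of promoter regions and 4.91% of weaker ones. The highest red point is 25.4%, at 75 bp.

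The GA sequence was mostly oriented one way relative to the host gene, as in the aakg-1, spat-2 and miz-1 windows, where TCTCTC is on the gene's own strand. Of the 81 members with the hexamer on 1 strand only, 63 (77.8%, 67.2 to 86.3) had TCTCTC on the strand of the host gene and 18 had GAGAGA there, while 13 more had both. The share was 52.6% (48.5 to 56.7) in weaker intronic regions and 56.2% (54.98 to 57.33) in the tiles. In promoter regions, on the strand of the gene with the nearest start, it was 58.7% (49.4 to 67.6). Taking only the strongest region of each gene gave 78.0% (64.0 to 88.5). It was 80.0% in first introns and 76.8% in later ones, and 70.0% to 91.7% on the 5 autosomes.

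This orientation was looked at after the sequences were seen, and the difference between sets was not tested. It was lower among the intronic regions of the 1604 strongest in a single replicate list, at 70.4% with replicate 2 alone and 65.9% (55.03 to 75.68) with replicate 1 alone. For GACGC the complement GCGTC was on the gene strand in 66.1% (52.2 to 78.2) of the 56 members with it on 1 strand, against 47.2% of weaker intronic regions and 52.1% of the tiles. Of the members, 14 summits (6.83%) lay within 100 bp of an intron end. The share of eligible sequence or of weaker regions that near an end was not counted.

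**Figure D5:**
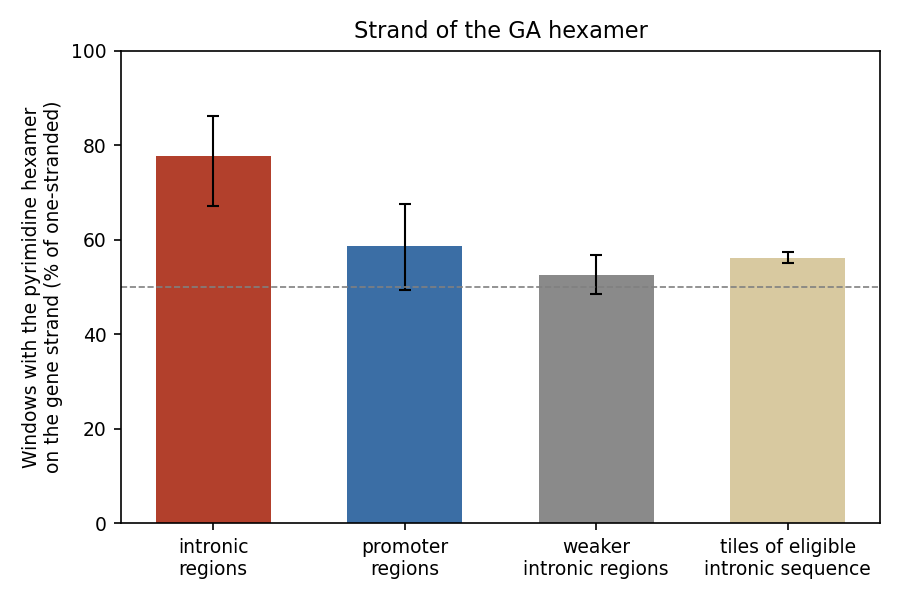
Share of windows with TCTCTC on the strand of the gene, among windows of 151 bp with the hexamer on 1 strand only, for autosomal intronic regions (77.8%), promoter regions (58.7%), weaker intronic regions (52.6%) and tiles of eligible intronic sequence (56.2%). Whiskers are 95% exact intervals and the dashed line marks 50%.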

How the data were processed

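Anti-GFP ChIP-seq was done on 2 samples of 1 group, so the data allow comparisons between replicates and between sets of regions, and none between conditions. The authors deposited peak lists on ce11, with 1 control per list. Per the README deposited with them, relaxed lists of peaks and background were made for each replicate and for the pool, and the optimal list by a reproducibility threshold (irreproducible discovery rate). The sources used here give no aligner, caller or threshold. Each region carries a score, the caller's signal value deposited by the authors, and the −log10 of the authors' q value, which was not used for results. Depth is unknown, and replicate scores are side by side without scaling.

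Summits were placed on the RefSeq annotation of WBcel235, coordinates are 1-based, and the genome sequence came from the same release. Replicate matches allowed 100 bp. Windows reached 75 bp to each side of a summit, and control windows were centred 400 bp to a random side (seed 1). 6-mers were compared by the two-sided exact McNemar test with Benjamini-Hochberg adjustment over 2080. The code was tested on simulated data with the same base composition in summit and control windows. That trial cannot show how the difference in GC content between the real windows bears on the calls. Intervals are 95% exact (Clopper-Pearson) and cover counting error only. Python 3.11.15, numpy 2.4.6, scipy 1.17.1 and pandas 2.3.3 were used. Where the labels call replicates biological, p-values across regions do not measure their spread.

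The members, gene lists and motifs were chosen with earlier results of these data known. Regions were named by rule: the 25 highest scores, genes with 3 or more, the 3 most unequal replicate ratios each way, the 4 highest of each list, the longest GA runs, the strongest with GACGC, those nearest the start limit or at non-coding genes, and the longest introns. Regions missing from a replicate list, the daf genes, the klp-6 region and the windows with neither motif were added after the data were seen. Alternatives were other start limits, window sizes, control windows, score limits and annotations, and each replicate alone.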

Additional observations from a re-analysis of the deposited data

How the results depend on the processing

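Across 81 repeats of 10 results under other settings, 66 stayed within the tolerance and 15 moved beyond it. The tolerance was 1.5 times for counts and 0.1 for rho. For shares it was the 95% exact interval of the main result, and for the median score 141 to 163. With the limit from starts at 1000 bp, introns of 1000 bp or more held 87.8% of regions. The list cut at its median score left 105 regions in 79 genes, with a median score of 214, a rho of 0.75 and 89 called 6-mers against 247. A summit in both replicate lists was found for 73.7% of members within 50 bp and 99.5% within 200 bp. Windows of 50 bp to each side gave 34.6% with GAGAGA, 22.9% with GACGC and 125 called 6-mers, and windows of 100 bp gave 59.5% with GAGAGA. Control windows 250 bp away gave 85 called 6-mers. The causes of these changes were not tested. 

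With each replicate left out, the top regions of the other list gave 210 to 217 intronic regions in 155 to 156 genes, 38.7% to 48.1% with GAGAGA, 25.7% to 29.0% with GACGC, 205 to 211 called 6-mers, 79.3% to 81.9% in long introns and 65.9% to 70.4% of one-stranded windows with TCTCTC on the gene strand. The GAGAGA share of 38.7%, with replicate 2 alone, and the TCTCTC share of 65.9%, with replicate 1 alone, moved beyond the tolerance. Repeats with 1 region per gene, or without ppfr-1 and T28B11.1, were added after the data were seen. No paired comparison between conditions was possible because there was 1 group. Unknown depth leaves the replicate scores without a common scale, and the summit is no finer than the fragments allow.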
